A study of Mus musculus with 6 samples.

Results

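The genes that copy DNA in S phase were followed in newborn mouse epidermis from animals labelled as Hnrnpu knockouts and from controls. Hnrnpu encodes an RNA-binding protein of the cell nucleus. The set is a list of 48 genes of origin licensing, helicase and polymerase assembly, the sliding clamp, nucleotide supply, chromatin assembly and maintenance of DNA methylation, matched by gene symbol to a table of 12894 genes. Of the 48, 42 were in the table and 6 were not analysed here (Mcm10, Cdc45, Gins1, Ccne1, Rfc4 and Rpa3). The epidermis was separated from the dermis of C57BL/6 mice at postnatal day 0, and its RNA was sequenced in bulk. Of the 6 libraries, control 1 was labelled wild type, controls 2 and 3 carried a genotype label read here as heterozygous, and the 3 others were labelled as Hnrnpu knockouts made with loxP and Cre. The labels do not name the promoter that drives Cre, and each library is taken as 1 animal because each title has its own number.

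DNA replication starts at origins bound by the origin recognition complex, which with Cdc6 and Cdt1 loads the MCM2-7 helicase in G1. In S phase the helicase is activated, primase and the replicative polymerases copy both strands, the PCNA clamp holds the polymerases on DNA, and chromatin and its methylation marks are rebuilt behind the fork. Most of these genes are transcribed under E2F factors, which the retinoblastoma family restrains until a cell commits to divide. In epidermis, division is mostly a property of the basal layer and the growing hair follicles. In bulk RNA, fewer dividing cells and less of a transcript per dividing cell cannot be told apart.

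The promoters of 5 genes that were lower in the knockout-labelled libraries are shown because they carry, or lack, the short words that E2F factors are known to bind. Each is the 250 bases before the transcription start, 5′ to 3′ on the gene's own strand, from RefSeq on GRCm38.p6, which is an older build than the mm39 named for the data. Capitals mark TTTCCCGC, TTTGGCGC or TTTCGCGC read on either strand. Rpa1 lies at chr11:75348384-75348633 on the minus strand, Mcm6 at chr1:128359706-128359955 on the minus strand, Orc3 at chr4:34614943-34615192 on the minus strand, Cdca7 at chr2:72475969-72476218 on the plus strand and Pola1 at chrX:93632156-93632405 on the minus strand. Dnmt1 was among the 6 lowest adjusted p-values but has 3 listed starts, and its sequence is left out, a choice made after the sequences were seen.
Rpa1: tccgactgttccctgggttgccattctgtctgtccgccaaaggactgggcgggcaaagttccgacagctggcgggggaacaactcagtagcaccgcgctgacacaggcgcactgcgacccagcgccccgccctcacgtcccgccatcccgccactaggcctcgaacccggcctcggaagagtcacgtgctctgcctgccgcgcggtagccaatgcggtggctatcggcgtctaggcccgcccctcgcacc
Mcm6: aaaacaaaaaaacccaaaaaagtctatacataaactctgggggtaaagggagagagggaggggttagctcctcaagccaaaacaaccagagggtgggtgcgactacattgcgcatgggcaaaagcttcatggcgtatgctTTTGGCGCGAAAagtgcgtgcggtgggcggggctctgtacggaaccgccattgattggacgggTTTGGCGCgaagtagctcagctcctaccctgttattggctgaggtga
Orc3: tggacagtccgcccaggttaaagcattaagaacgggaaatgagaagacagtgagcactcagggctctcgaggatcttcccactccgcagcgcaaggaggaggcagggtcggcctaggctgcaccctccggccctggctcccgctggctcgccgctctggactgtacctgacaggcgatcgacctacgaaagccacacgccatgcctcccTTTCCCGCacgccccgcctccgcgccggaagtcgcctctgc
Cdca7: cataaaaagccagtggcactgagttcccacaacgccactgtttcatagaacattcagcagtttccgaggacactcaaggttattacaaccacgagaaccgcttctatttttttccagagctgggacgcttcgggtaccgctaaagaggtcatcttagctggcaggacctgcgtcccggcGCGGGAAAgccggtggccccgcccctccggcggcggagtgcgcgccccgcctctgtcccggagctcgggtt
Pola1: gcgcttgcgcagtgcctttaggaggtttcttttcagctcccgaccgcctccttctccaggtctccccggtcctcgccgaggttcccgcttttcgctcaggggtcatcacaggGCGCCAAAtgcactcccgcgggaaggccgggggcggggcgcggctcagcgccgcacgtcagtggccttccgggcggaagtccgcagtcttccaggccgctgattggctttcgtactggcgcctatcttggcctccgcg

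Mcm6 held 3 such words, with first bases 110, 106 and 47 bases before the start, of which the first 2 overlap. Orc3 held TTTCCCGC 41 bases before the start, Cdca7 held it on the opposite strand 71 bases before, and Pola1 held TTTGGCGC on the opposite strand 138 bases before. Rpa1 had none of the 3 words in this window. RefSeq windows of 300 bases, from 250 before to 50 after a start, were given for 36 of the 42 measured genes, and 16 of the 36 (44.4%) had such a word in at least 1 window. The share was 4.06% of the 9034 tested genes with a window, and 2.12% of all 27025 genes in the promoter table. Among the 8 genes that were lower, 7 had a word (87.5%), against 9 of 28 (32.1%) of those that did not pass the test. By windows the shares were 63.6% and 25.0%. The 7 include Dnmt1, whose word is in 1 of its 3 windows, and of the 6 lower genes with 1 listed start 5 had a word. The word CCAAT, read on both strands, was in 61.1% of the 36 genes and in 42.6% of tested genes. These are matches of letters, and no binding was measured. The 8 lower genes were picked by their adjusted p in these same data. Without control 1 or without knockout 2 only Dnmt1 and Rpa1 fell, and Rpa1 had no word. The difference between 87.5% and 32.1% was not tested.

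Depth was estimated at 6460000 to 9120000 assigned reads per library, and knockout-labelled library 2 was the shallowest. Hnrnpu itself had 1450, 1318 and 1160 normalized counts across controls 1 to 3, against 1565, 1342 and 1036 for knockout-labelled libraries 1 to 3, a log2 difference of −0.01 ± 0.20 (SE), so the gene-level count does not check the labels. Which exons were deleted is not given, and exon-level reads were not analysed here. Xist was at 5656 and 4758 normalized counts in knockout-labelled libraries 2 and 3 and at most at 3.27 in the 4 others, and the Y-linked Ddx3y was listed at 0 in those 2 only. By these transcripts, 2 knockout libraries came from females and the other 4 libraries from males, and sex and genotype are therefore partly confounded.

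Markers of cycling cells moved with the groups. Of 15 such genes, 9 fell (60.0%, against 15.9% of all tested genes) and 0 rose (against 17.7%). Their median log2 change was −2.14, and their summed level was 965.0 to 2930.3 in controls and 182.5 to 627.1 for the knockout-labelled libraries. Top2a and Ccna2 of the 15 are reported again below, in the lists of other replication genes and of regulators. None of the 15 was at 0 in every control. Of 13 basal keratinocyte markers, Krt15 fell and Krt14 rose (7.69% each way), and the median change of the list was −0.41. Their sums were 18868.9 to 54738.5 in controls and 34126.5 to 129485.9 in knockouts, and without Krt14 they were 15661.2 to 44429.5 and 12358.6 to 37001.7. All 10 melanocyte markers rose, against 17.7% of all tested genes. Their summed levels were 490.5 to 731.7 in controls and 3178.0 to 5059.8 in knockouts. The part of these markers in the replication results was not tested.

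Among the 42 replication genes, 8 fell in the knockout-labelled libraries and 0 rose, by limma on log2(normalized count + 1) with Benjamini-Hochberg adjustment over all 12872 tested genes. The 8 are Rpa1, Dnmt1, Mcm6, Orc3, Cdca7, Pola1, Uhrf1 and Hells, 19.0% of the 42. Over all tested genes 15.9% fell and 17.7% rose, so the share that fell was near the background, while none rose. The median log2 change of the 42 was −0.51, against −0.02 over all tested genes, and 37 of the 42 (88.1%) had a change below 0, against 51.1% of all genes. The 95% interval lay wholly within 1 log2 unit of 0 for 11 of the 42 and reached below −1 for 29. The 3 control values lay wholly above the 3 knockout values for 14 of the 42 (33.3%; 25.0% of all tested genes), and the knockout values lay wholly above for 0 (25.8% of all tested genes). When every library was scaled to the same total, 23.8% of all genes fell and 11.2% rose with a median change of −0.36, and of the replication genes 8 fell (19.0%) and 0 rose.

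**Figure D1:**
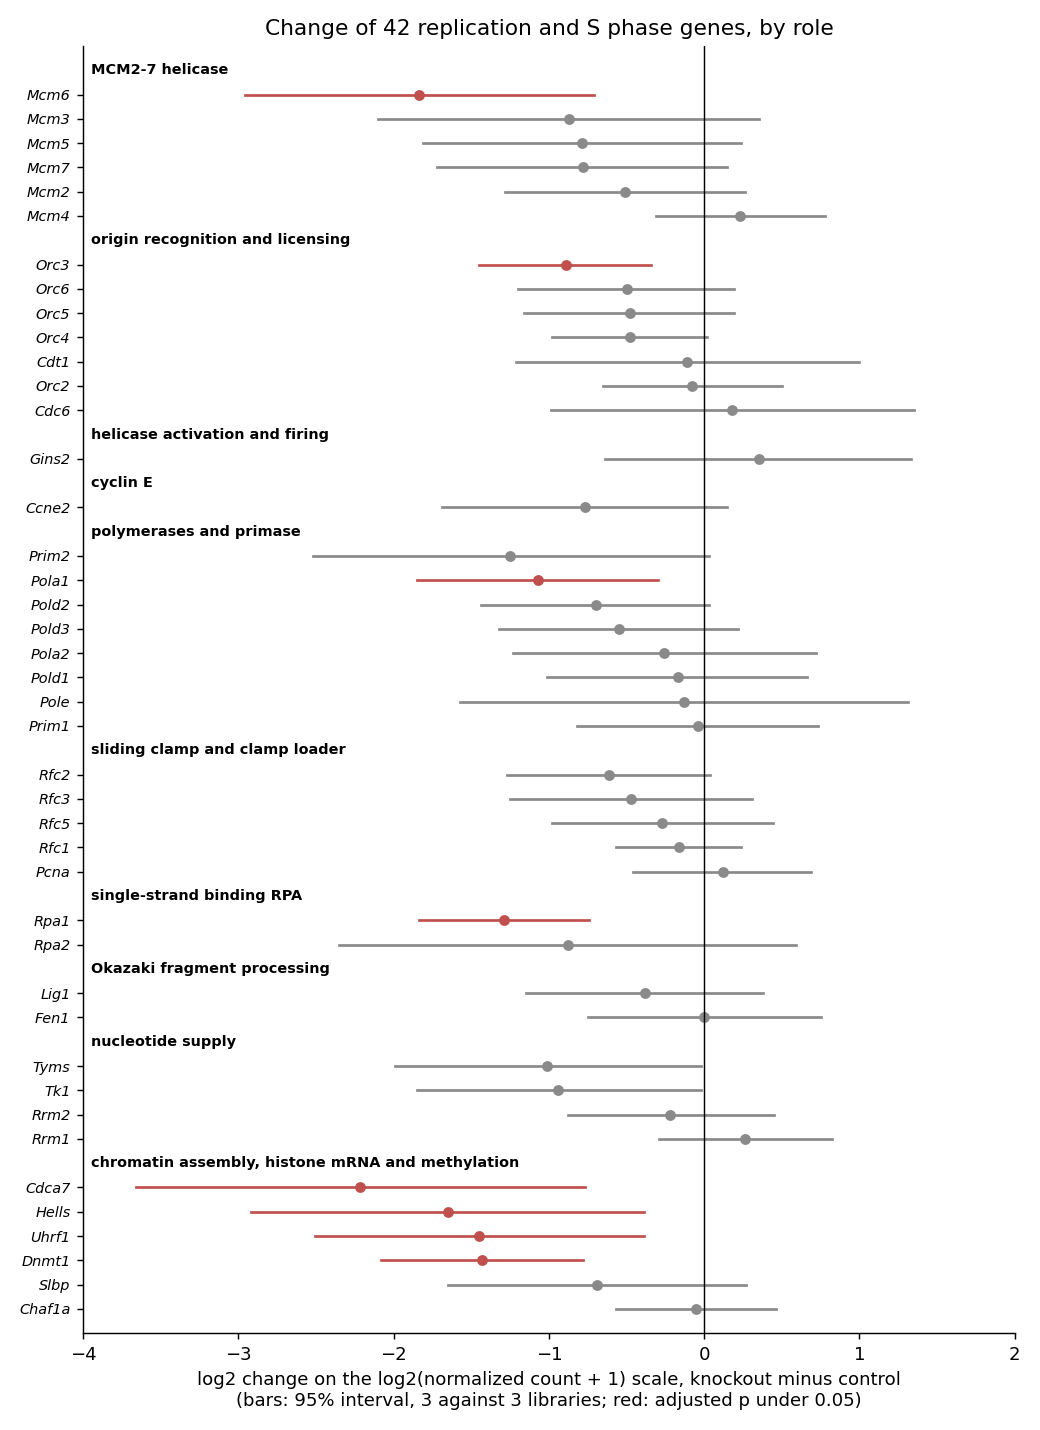
Log2 change of the 42 measured genes, knockout-labelled libraries minus control, grouped by role. Points are limma estimates on log2(normalized count + 1), bars are 95% intervals and red marks adjusted p under 0.05, and 37 of the 42 points lie below 0.

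Origin recognition and licensing genes had a median log2 change of −0.48 over 7 genes, of which Orc3 fell and 0 rose. Orc3, a subunit of the origin recognition complex, had 139.69, 122 and 99.7 normalized counts across controls 1 to 3, against 65.4, 54.4 and 73.2 for knockout-labelled libraries 1 to 3. Every control was above every knockout. The log2 change was −0.89 ± 0.24 (SE, n = 3 and 3), which is 53.9% of control, with a limma adjusted p of 0.0237. Orc4, which in controls had the highest level per kilobase of exon in this group (28.2, against 22.2 for Orc2; in knockouts 20.4 against 21.2), had 233, 187 and 209.6 against 169, 119 and 167, and its change of −0.48 ± 0.22 missed the threshold (limma adjusted p = 0.121) although its groups did not overlap. Cdc6 and Cdt1, the loading factors, differed by 0.18 ± 0.51 and −0.11 ± 0.49. The interval for Cdc6 ran from −0.99 to 1.35, so a rise of 1 log2 unit lay within it.

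The MCM2-7 helicase genes had a median log2 change of −0.79 over 6 genes, of which 1 fell. Mcm6 had 214, 99.2 and 87.5 normalized counts in controls and 68.2, 23.8 and 23.3 for the knockout-labelled libraries. Control 1 was far above the other controls, and knockout 1 was the highest of the knockouts. The log2 change was −1.84 ± 0.49, or 28.0% of control (limma adjusted p = 0.0226). Mcm4, the highest of the subunits per kilobase at 39.5 in controls and 46.1 in knockouts, had 179, 123 and 123 against 193, 167 and 138, with overlapping groups and a change of 0.23 ± 0.24 (limma adjusted p = 0.475). The subunits form 1 ring of equal parts, and here Mcm6 was at 28.0% of control while Mcm4 was at 117%; the difference between them was not tested. Mcm2, Mcm3, Mcm5 and Mcm7 differed by −0.51 to −0.87 and none passed the threshold.

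Of the 4 helicase activation genes on the list of 48, only Gins2 was measured. It had 215, 79.8 and 72.1 normalized counts in controls and 112, 199.6 and 115 for the knockout-labelled libraries, a change of 0.35 ± 0.43 (limma adjusted p = 0.556). Of its exon bases, 67.3% are shared with Gse1 on the opposite strand, and the strand setting of the counting is not stated, so its value is uncertain. Ccne2, a cyclin that starts S phase with Cdk2, had 25.6, 31.9 and 25.1 against 11.2, 20.4 and 16.6. Its groups did not overlap, but the change of −0.77 ± 0.40 missed the threshold (limma adjusted p = 0.168). Ccne2 shares 17.4% of its exon bases with Ints8 on the opposite strand.

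All 8 polymerase and primase genes had a change below 0, with a median of −0.41, and Pola1 passed the test. Pola1, the catalytic subunit of the polymerase that extends primers, had 83.8, 40.7 and 59.7 normalized counts in controls and 28.0, 28.9 and 25.5 for the knockout-labelled libraries. The knockouts were close together, and each was below the lowest control. The log2 change was −1.07 ± 0.34, or 47.5% of control (limma adjusted p = 0.0399). Pold2, an accessory subunit of polymerase delta and the highest of this group per kilobase, had 42.3, 63.8 and 51.5 against 34.6, 23.8 and 37.7, a change of −0.70 ± 0.32 (limma adjusted p = 0.122). Prim2, the large primase subunit, had 28.7, 31.0 and 27.8 against 4.67, 15.3 and 21.1, and its lowest library was knockout 1, at 5 estimated reads. Its change of −1.25 ± 0.56 missed the threshold (limma adjusted p = 0.116). Prim1, the catalytic primase subunit, was at 97.0% of control.

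Clamp and clamp loader genes had a median change of −0.27 over 5 genes, and 0 passed the test. Pcna, the clamp itself and the highest of the group at 82.4 per kilobase in controls and 91.2 in knockouts, had 207, 167 and 219.55 normalized counts in controls and 215.75, 159 and 282 for the knockout-labelled libraries. The groups overlapped. The change was 0.12 ± 0.25 (limma adjusted p = 0.742), and its 95% interval ran from −0.46 to 0.69. Rfc1, the large loader subunit, was at 89.3% of control, with an interval of −0.57 to 0.24. Among the other loader subunits, Rfc2 had the lowest change, −0.61 ± 0.29. Pcna has 2 annotated copies named as pseudogenes, and reads could be split between them.

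Rpa1, the large subunit of the protein that coats single-stranded DNA, had the lowest adjusted p of the list. It had 213, 258 and 224 normalized counts in controls and 103, 69.8 and 114 for the knockout-labelled libraries. The highest knockout was well below the lowest control. The log2 change was −1.29 ± 0.24, or 40.8% of control (limma adjusted p = 0.00517). Rpa2, its partner, had 37.7, 16.8 and 19.6 against 22.4, 17.0 and 4.44 with overlapping groups, and its change of −0.88 ± 0.64 did not pass. In Okazaki fragment processing, the flap nuclease Fen1 was at 99.8% of control and the ligase Lig1 at 76.7%, and neither passed. Fen1 shares 78.8% of its exon bases with an antisense gene, so its value is uncertain.

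**Figure D2:**
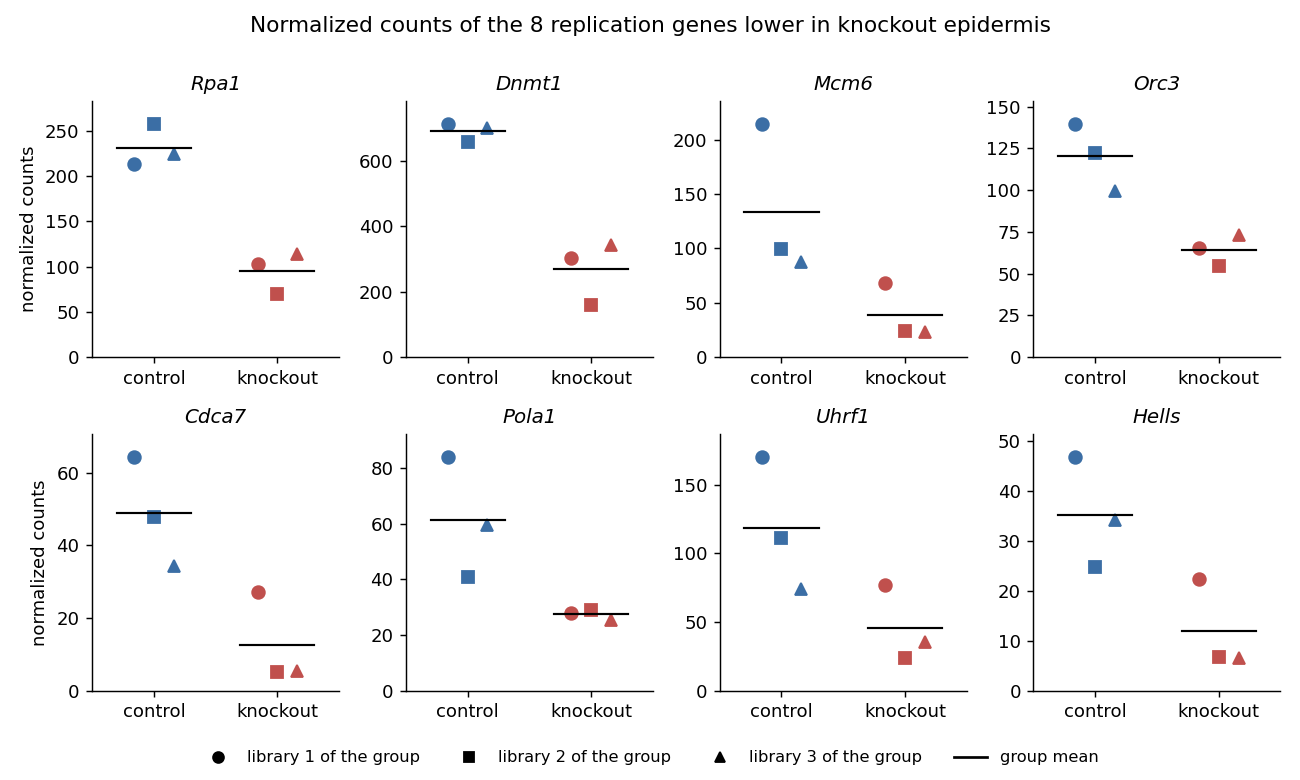
Normalized counts of the 8 genes that fell, in each of the 3 control and 3 knockout libraries, with the group mean as a line. For 7 of them all controls lie above all knockouts, and for Uhrf1 the highest knockout, at 76.9, lies above the lowest control, at 73.8.

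The 4 nucleotide supply genes had a median change of −0.58, and 0 passed the test. Rrm1 and Rrm2 encode the subunits of ribonucleotide reductase, which makes deoxynucleotides. Rrm2, the highest of the group per kilobase, had 92.9, 82.3 and 119 normalized counts against 119, 66.3 and 73.2, a change of −0.22 ± 0.29 (limma adjusted p = 0.587), and Rrm1 differed by 0.26 ± 0.24. The enzymes of thymidine supply had larger differences. Tyms, thymidylate synthase, had 27.9, 23.9 and 31.1 against 15.9, 8.51 and 16.6, without overlap, and a change of −1.01 ± 0.43 (limma adjusted p = 0.102). Tk1, thymidine kinase, had 80.0, 65.5 and 62.1 against 65.4, 30.6 and 22.2, and a change of −0.94 ± 0.40 (limma adjusted p = 0.105). When adjacent animals were paired as a replicate block, Tk1 passed (limma adjusted p = 0.0412), and it also passed without knockout 1. Tyms passed when limma was fitted without trend. Tyms has an annotated copy named as a pseudogene.

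Chromatin assembly, histone mRNA and methylation genes had the lowest median of the role groups with more than 1 gene, −1.44 over 6 genes, and 4 of them fell. All 4 act in keeping DNA methylated as it is copied. Dnmt1, the methyltransferase that copies methylation onto the new strand, was the highest of the list per kilobase in controls, at 93.4, and at 36.4 in knockouts was below Pcna and Mcm4. It had 712, 656 and 699.7 normalized counts in controls and 304, 158 and 343 for the knockout-labelled libraries. The controls were close together, and the highest knockout was below the lowest control. The log2 change was −1.43 ± 0.28, or 37.0% of control, and the 95% interval reached from −2.08 to −0.78 (limma adjusted p = 0.00671).

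Uhrf1, which brings Dnmt1 to newly copied DNA, had 169.97, 111 and 73.8 normalized counts in controls and 76.9, 23.8 and 35.5 for the knockout-labelled libraries. It was the only gene of the 8 whose groups overlapped. Its log2 change was −1.45 ± 0.46 (limma adjusted p = 0.0422). Hells, a chromatin remodeller needed for methylation of packed DNA, had 46.8, 24.8 and 34.3 against 22.4, 6.81 and 6.65, and a change of −1.65 ± 0.56 (limma adjusted p = 0.0493). Cdca7, which activates Hells, had 64.2, 47.8 and 34.3 against 27.1, 5.10 and 5.54. Its change of −2.22 ± 0.63, or 21.5% of control, was the lowest of the 42 (limma adjusted p = 0.0281). The 2 lowest knockout values of Cdca7 rest on an estimated 3 and 5 reads, and those of Hells on 4 and 6. Chaf1a, a subunit of the histone chaperone that follows PCNA, was at 96.3% of control but shares 52.5% of its exon bases with Ubxn6, and Slbp, which binds histone mRNA, differed by −0.69 ± 0.42 without passing.

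Some libraries were high or low for many of these genes at once. Control 1, the wild-type animal, was the highest control for 31 of the 42 genes (73.8%), against 33.0% of all tested genes. Knockout 2 was the lowest knockout for 21 of the 42, against 34.2% of all genes, and knockout 1 was the highest knockout for 20. Knockout 2 also stood apart in the sums of some marker lists. Its summed level of 13 leukocyte markers was 9318.2, against 448.2 to 890.7 in the other libraries. Of this, S100a8 and S100a9 gave 4682 and 3156, while Itgam was at 573.35, against at most 99.73 elsewhere. Ptprc, Cd74, H2-Aa, H2-Ab1, Lyz2, Fcer1g and Tyrobp were also highest in knockout 2. Cd3e, Csf1r and Adgre1 were instead below every control there, at 3.40, 137.75 and 28.92. The sum of 4 endothelial and red cell markers in knockout 2 was 754.8, against at most 114.6 elsewhere. The sum of 10 hair follicle markers was 72479.5, against 23841.3 and 23290.0 in knockouts 1 and 3 and 3458.4 to 3975.3 in controls. Krt17 alone gave 68115.0 of it, against 22268.5 and 20097.0 in knockouts 1 and 3. Sox9, Krt25 and Cux1 were also highest in knockout 2, and Krt79, Krt71 and Krt27 were neither highest nor lowest there. Lhx2, Shh and Lef1 were lowest in knockout 2, at 1.70, 3.40 and 41.4. The part of these markers in the replication values was not tested. The median log2 level of the 42 was 6.39, 6.03 and 5.94 in controls 1 to 3 and 6.00, 5.20 and 5.38 for knockout-labelled libraries 1 to 3. Knockout 1 thus lay within the range of the heterozygous controls by this median, but below control 1, which has the adjacent animal number. In each pair of adjacent animal numbers the knockout-labelled library had the lower median. Knockout 1 is the male of the 3 knockouts, and the part of sex in these medians was not tested. Without control 1 or without knockout 2, 2 of the 42 fell (4.76%), against 8.98% and 12.1% of all genes in the same fits. With knockout 1 as the lone knockout 3 fell (Dnmt1, Prim2 and Rpa1; 7.14%, against 11% of all genes). Without control 2 and control 3, 4 and 5 fell (9.52% and 11.9%, against 8.61% and 8.68%). Without knockout 3, 4 fell (9.52%, against 16.9%), and without knockout 1, 8 fell (19.0%, against 14.2%). Dnmt1 and Rpa1 fell under all 16 alternatives tried, with log2 changes of −1.77 to −1.09 and −1.63 to −1.08. Of the others, Mcm6 fell under 13, Orc3 under 12, Cdca7 under 10, Uhrf1 under 9, Pola1 under 8 and Hells under 7. Several of the alternatives changed only the pseudocount, the filter or the trend. When 1 library was left out, Cdca7 and Hells fell only without knockout 1 and Pola1 only without control 2. In those fits Uhrf1 fell only without control 3 and without knockout 1, and Mcm6 missed only without control 1 and without knockout 2.

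**Figure D3:**
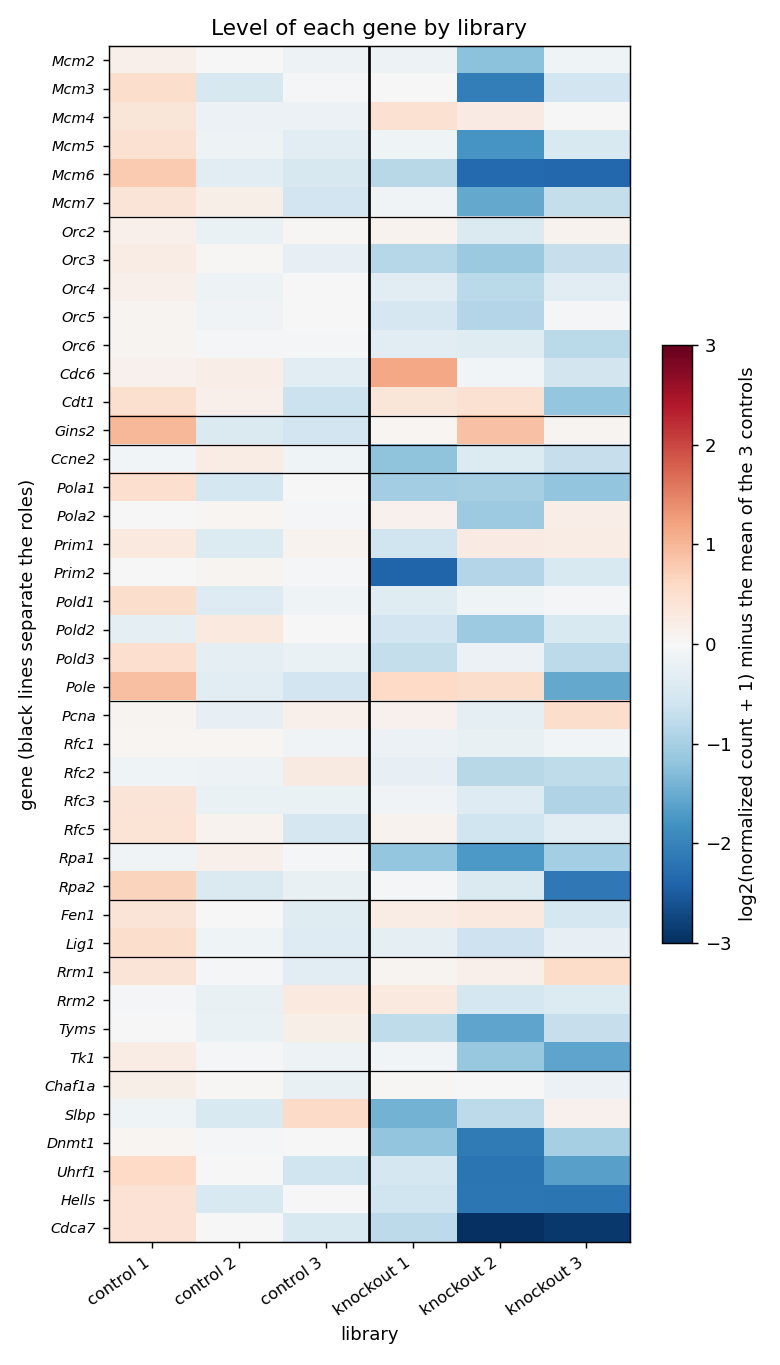
Level of each of the 42 genes in each library as log2(normalized count + 1) minus the mean of the 3 controls, in rows ordered by role. The control 1 column is mostly above 0, and the lowest cells are those of Cdca7 in knockout-labelled libraries 2 and 3.

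**Figure D4:**
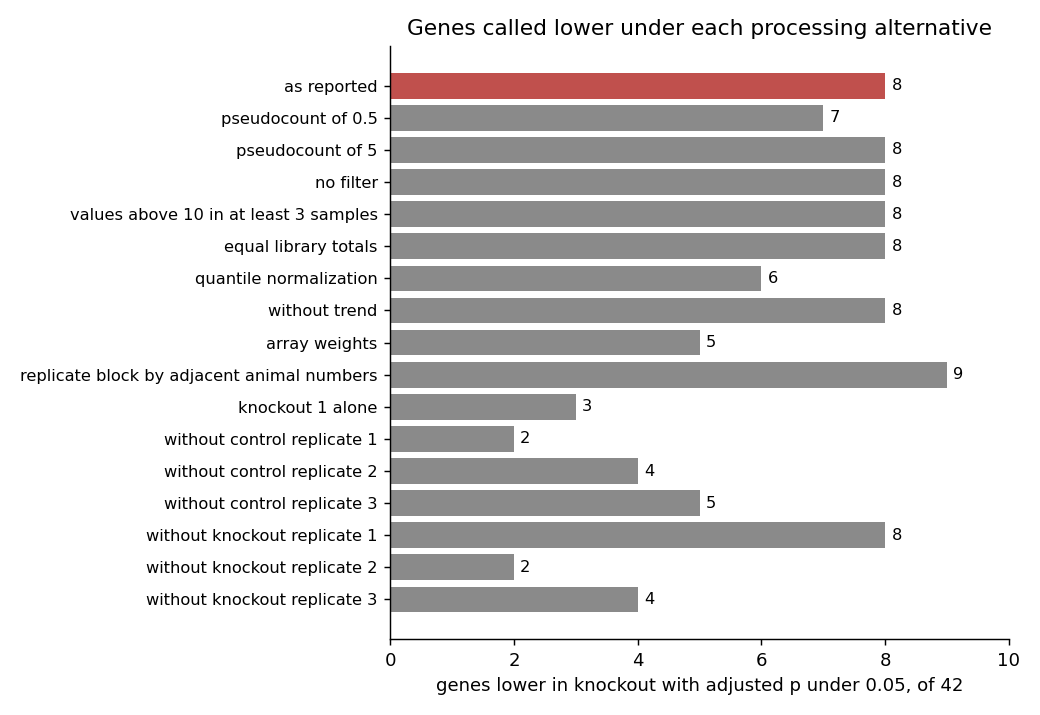
Number of the 42 genes that fell with adjusted p under 0.05, as reported and under 16 alternatives. The count is 8 as reported and lies between 2 and 9 elsewhere, at 2 without control 1 and without knockout 2.

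Of 67 other measured genes of replication and S phase, 12 fell (17.9%, against 15.9% of all tested genes) and 4 rose (5.97%, against 17.7%). The share that fell was near the background. Their median log2 change was −0.58, and 52 were below 0. With the replicate block 21 fell (31.3%, against 22.0% of all genes). Without control 1 or control 2, 3 fell (4.48%, against 8.98% and 8.61% of all genes), and without control 3, 5 fell (7.46%, against 8.68%). Without knockout 1, 13 fell (19.4%, against 14.2%). Without knockout 2, 6 fell (8.96%, against 12.1%), and without knockout 3, 7 fell (10.4%, against 16.9%). In licensing and firing, Mcm9, a helicase of DNA repair, and Gins4, a partner of Gins2, fell by 1.02 and fell by 0.94 on the log2 scale. Mtbp, which helps to fire origins, had 29.7, 28.3 and 27.9 normalized counts in controls and 127, 95.7 and 123 for the knockout-labelled libraries, and rose by 1.96 ± 0.25 (limma adjusted p = 0.00103). At the fork, the topoisomerases Top2b and Top2a fell by 1.27 and fell by 2.14. The small polymerase subunits Pold4 and Pole4, of delta and epsilon, rose by 1.76 and 1.42, whereas Pole3, also of epsilon, fell by 0.67. Umps, of pyrimidine synthesis, Samhd1, which degrades deoxynucleotides, and the mitochondrial kinase Tk2 fell by 1.68, fell by 1.33 and fell by 0.70. Cdca7l, a relative of Cdca7, and Cenpa, the histone of centromeres, fell by 1.45 and fell by 1.56.

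Of 34 measured regulators of G1 and S phase, 5 fell and 5 rose, 14.7% each way, which is near the shares of all tested genes (15.9% and 17.7%). Cdkn1a, the p21 inhibitor of cyclin-dependent kinases, had 1794, 2798 and 4533 normalized counts in controls and 8399, 15074 and 18574 for the knockout-labelled libraries. Every knockout was above every control, and the log2 change was 2.23 ± 0.39 (limma adjusted p = 0.00377). Cdkn2c, another such inhibitor, fell by 2.16, Rbl2, a retinoblastoma relative, fell by 1.23 and Ccna2, the cyclin of S phase, fell by 2.24. Ccnd1, a G1 cyclin that promotes entry into S phase, rose by 1.36 ± 0.37 (limma adjusted p = 0.0249). Myc had 590, 983 and 1105 against 921, 595 and 510, and its change of −0.40 ± 0.30 did not pass (limma adjusted p = 0.323). E2f1 was not analysed here. Mki67, which marks cells in cycle, had 959.7, 392 and 296 against 178, 39.1 and 110, and fell by 2.38 ± 0.58 (limma adjusted p = 0.0159). Of 16 measured genes of the replication checkpoint, the kinase Atr fell by 0.77 and Brca2, which protects stalled forks, rose from 165, 93.9 and 50.7 to 780, 1028 and 184 (limma adjusted p = 0.0193).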

How the data were processed

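RNA was measured in 6 libraries. The submitters' processing notes name the build mm39, Partek 9.0.20.0202 and TopHat2 2.1.0 without saying what each did. The deposited unit is a signal, the normalized count per gene. How it was normalized, and whether strand was used, is not stated in the labels. Low values were whole multiples of 1 step for 80.8 to 83.4% of them, so reads could only be estimated and count models were left out.

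Genes above 1 in at least 3 libraries (12872) were tested as log2(value + 1) with limma 3.58.1 in R 4.3.3 (trend), adjusted by Benjamini-Hochberg at 0.05. On this scale the change of low genes is understated. P-values set the group difference against the spread between these libraries, moderated across genes. That spread includes the mix of genotypes among the controls and of sexes among the knockouts. Levels per kilobase use exon lengths of an older annotation. By that annotation, 12 of the 42 genes share exon bases with another protein-coding gene, and 0 of the 8 that fell do. Besides those named above, Orc2 shares 29.8% with Nif3l1 and Rfc2 15.1% with Lat2, both on the opposite strand.

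The members, lists and rules were chosen with earlier results of these data known. Full values were given for genes past the threshold and, except for Fen1, the highest per kilobase of each role. The rule named the highest mean level, taken here per kilobase of exon. Of other lists, up to 4 genes by adjusted p were named, most with the log2 change only. Hnrnpu, Cdkn1a, Ccnd1, Myc and Mki67 were named by choice. Others, such as Prim2, Tyms, Tk1, Rpa2 and Pole3, were named after their values were seen. The rule printed promoters of the 6 lowest adjusted p-values; Dnmt1 was left out after its sequence was seen, because a window of a gene with several starts can run into its own transcript. Adjacent animal numbers (216 with 217, 241 with 242, 250 with 251) were taken to pair libraries, not from a stated litter. The reason was that deviations from group means correlated by 0.37, 0.23 and 0.36 within pairs, against −0.28 to −0.07 for the other pairs. Deviations cancel out within a group, so a library cannot correlate with the same sign with every library of the other group. The correlations therefore do not establish the pairing.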

Additional observations from a re-analysis of the deposited data

How the results depend on the processing

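No replication gene rose under any of the 16 alternatives, and the median log2 change of the 42 stayed between −0.84 (equal library totals) and −0.20 (knockout 1 alone). The fit with knockout 1 alone assumes that the lone library varies like the controls. The number that fell, 8 as reported, was 5 with array weights (11.9%, against 15.7% of all tested genes). It ranged from 2 to 8 when 1 library was left out, lowest without control 1 and without knockout 2. The number of other replication and S phase genes that fell, 12 as reported, was 21 under the replicate block (31.3%, against 22.0% of all tested genes). It was 20 when library totals were made equal (29.9%, against 23.8%), and ranged from 3 to 13 when 1 library was left out. The causes were not tested. The replicate block gave 9 of the 42 (21.4%, against 22.0% of all tested genes), adding Tk1. With a pseudocount of 0.5, Hells missed the threshold (limma adjusted p = 0.0501). A change of sign occurred only among genes that did not pass, for 9 of them with knockout 1 alone. In depth, 7 genes had under 10 estimated reads in some library and 22 had at least 20 in every one. With 3 libraries a group, an exact permutation test could not go below 0.1.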
